A study of Arabidopsis thaliana with 12 samples.

Results

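Low formaldehyde exposure was compared with clean chamber air in rosette leaves of wild-type Arabidopsis thaliana (Columbia). The comparison rests on 6 of the 12 arrays of the series, 3 from plants kept in the chamber at 1 to 2 ppm formaldehyde and 3 from plants kept in the same chamber in clean air with less than 0.04 ppm. Each array holds the RNA of 1 plant, hybridised to the Affymetrix ATH1 array, which reads transcripts with probe sets lying mostly near their 3' ends. The remaining arrays, used here for the estimate of the spread and as side values, came from 3 plants at 14 to 16 ppm (high exposure) and 3 plants left outside the chamber (less than 0.08 ppm). All plants were 7 weeks old, had spent 72 h in constant light at 24 °C, and were sampled after 150 min. The 3 plants of a condition shared the chamber, so that the formaldehyde level and the chamber run cannot be told apart, and p-values reflect plant-to-plant spread within 1 chamber run per group.

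Formaldehyde is a small reactive aldehyde that leaves take up from air and also make in their own metabolism. In plants it binds glutathione, is oxidised to formate and then, by formate dehydrogenase, to carbon dioxide, and it also enters the folate-bound one-carbon pool that feeds serine and methionine. Aldehyde dehydrogenases oxidise other reactive aldehydes, and glutathione transferases and UDP-glycosyltransferases attach glutathione or sugars to reactive compounds and to many natural products.

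Values are the deposited GCRMA values on a log2 scale, so that a difference of 1 is a 2-fold change. Of 22746 probe sets, with control probe sets left out, 13874 had a value above 4 on at least 3 of the 12 arrays and were tested. A probe set is called changed at a Benjamini-Hochberg adjusted p under 0.05 in limma, and every adjusted p below is limma's, over all 13874. Differences are low exposure minus clean air, each with its standard error (SE) from the fit. A level of 4 or less is taken as not above background, and where all 3 plants of a group were there, the change is given as at least a fold computed from 4. A gene is described by 1 probe set, and 7480 of the tested probe sets carry the name of a single gene. Loci of several gene lists, among them the ribosomal, lectin, MATH-domain, glutaredoxin and cytokinin lists, were entered after the values had been read. Their counts are descriptions beside the shares over all probe sets, not tests.

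At low exposure 3224 of the 13874 probe sets were called (23.2%), 1639 higher (11.8%) and 1585 lower (11.4%). A change of at least 2-fold was called for 1397 (10.1%), 614 of them higher (4.43%) and 783 lower (5.64%). The large changes were mostly falls: 24 called probe sets were higher and 80 lower by at least 3 on the log2 scale. The groups did not overlap at 5803 probe sets (41.8%), and 3154 of these were also called (22.7%), while 5205 had an unadjusted p under 0.05 (37.5%). Of the 7480 named probe sets 1667 were called (22.3%), 866 higher and 801 lower. The median SD between plants was 0.23 at low exposure and 0.20 in clean air. The lowest correlation of arrays within these groups was 0.9558, and the highest between a low-exposure and a clean-air array was 0.9566. Without clean air replicate 2 or 3 the counts of calls were 1678 and 1600, and without clean air replicate 1 there were 3372.

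**Figure D1:**
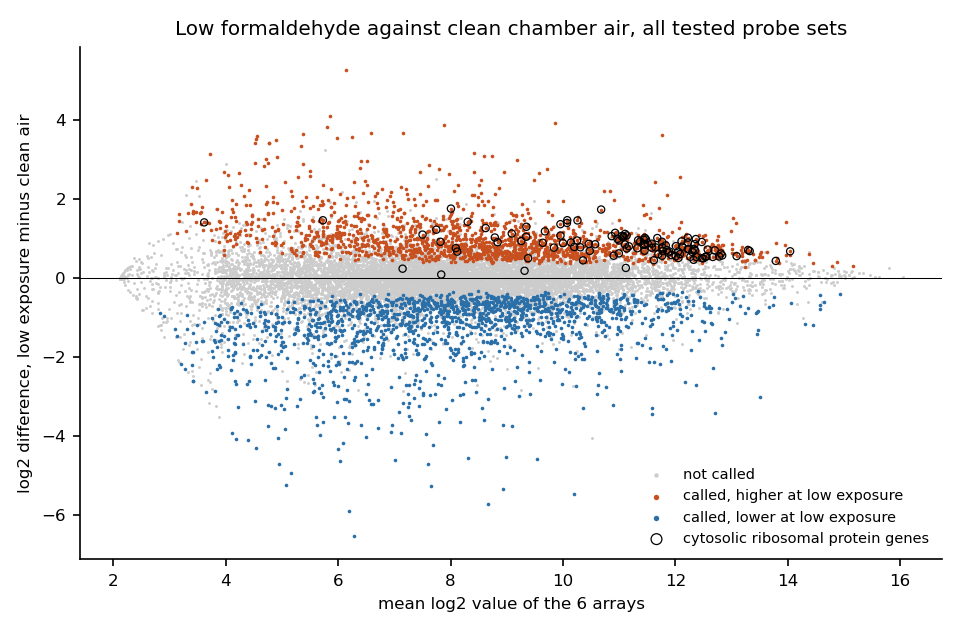
Difference between low exposure and clean air (log2) against the mean log2 value of the 6 arrays, 1 point for each of the 13874 tested probe sets. Orange points (1639) were called higher and blue points (1585) lower at low exposure, and the black rings, the 113 cytosolic ribosomal protein genes, all lie above the zero line.

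The arrays also differed in their control probe sets. For actin, GAPDH and ubiquitin the array carries probe sets at both ends of the transcript, and their 3' minus 5' signal, which grows as RNA is degraded or copied incompletely, lay between 1.42 and 1.50 (log2) at low exposure and between 1.17 and 1.27 in clean air, without overlap. The bioC spike-in control averaged 8.78 ± 0.13 at low exposure and 6.53 ± 0.26 in clean air (SD, n = 3). With the 3' minus 5' signal of each array as a covariate 272 probe sets were called, and the median SE rose from 0.21 to 0.28. The leaf label was checked by RCA, rubisco activase of leaf mesophyll, which lay between 14.9 and 15.1 on all 6 arrays. In the same RNA FMA of guard cells (-0.55, adjusted p = 0.13), TRY of trichomes (0.14, adjusted p = 0.878) and SWEET11 of phloem (0.18, adjusted p = 0.6) were not called. AUR1, a kinase of dividing cells, was not above 4 in clean air and lay between 4.49 and 4.97 at low exposure, at least 1.58-fold higher (adjusted p = 0.00658). The listed markers of xylem, epidermis, roots, senescence and flowers could not be read from named probe sets and are not analysed here. In whole leaves fewer cells of a type and less RNA per cell cannot be told apart.

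Ribosomal protein genes were higher at low exposure almost throughout. The cytosolic ribosome is built from ribosomal RNA and many small proteins, and in Arabidopsis most of these proteins are encoded by several near-identical genes. Of 113 tested genes of cytosolic ribosomal proteins 108 were called higher and none lower, where 11.8% of all tested probe sets were called higher. The difference was above zero for all 113, from 0.09 to 1.76, with a median of 0.80. In 111 of them every low-exposure plant lay above every clean-air plant, as in 21.0% of all tested probe sets. The median over all tested probe sets was -0.01. The mean log2 value of the 113 genes was 10.77, 10.36 and 10.52 in the 3 clean-air plants and 11.25, 11.33 and 11.58 in the low-exposure plants. All 3 low-exposure plants were above the clean-air plants, and also above the plants outside the chamber (10.31, 10.39 and 10.53) and those at high exposure (11.12, 11.04 and 10.71).

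AT4G30800, of the small subunit, was at 7.80, 6.77 and 6.81 in clean air and at 8.77, 8.61 and 9.28 at low exposure. It rose by 1.76 ± 0.36 (SE; adjusted p = 0.00775). AT3G06680, of the large subunit, was at 10.02, 9.73 and 9.68 in clean air and at 11.31, 11.56 and 11.77 at low exposure. Its difference of 1.73 ± 0.20 (adjusted p = 0.00084) was also called with the 3' minus 5' covariate. The large-subunit genes AT2G39390 (1.46 ± 0.15), AT1G80750 (1.42 ± 0.20) and AT3G14600 (1.06 ± 0.11) rose too, the last with the smallest adjusted p of the list (0.000634). The 5 genes not called were AT5G39850, AT5G48760, AT3G04230, AT4G02230 and AT3G13580. Probe sets of near-identical copies can read each other's transcripts, so the genes of a family are not independent measurements.

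The number of ribosomal protein genes called at low exposure depended on the covariate, the scaling and the arrays used. Their median difference lay between 0.64 and 0.90 under every alternative. With the 3' minus 5' covariate 4 of the 113 were called, while 111 kept a difference above zero and the median was 0.71. When the spike-in controls bioB, bioD and cre set the scale, 39 were called with a median of 0.64, and 112 differences were above zero. Against the plants outside the chamber 108 were called higher, with a median of 0.89, where 18.0% of all tested probe sets were called higher and 17.5% lower (35.5% together). Between clean air and the outside none of the 113 was called (median 0.14), beside 3.04% of all probe sets. Without clean air replicate 2 or 3 the count was 67 and 75, and without low exposure replicate 2 or 3 it was 89 and 73. At high exposure 45 were higher and 1 lower than in clean air, where 22.8% and 30.1% of all probe sets were called higher and lower (52.9% together), and the median was 0.32. Tested directly, high against low exposure, 61 of the 113 were lower at high exposure and 2 higher (28.7% and 21.1% of all probe sets; median -0.48).

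**Figure D2:**
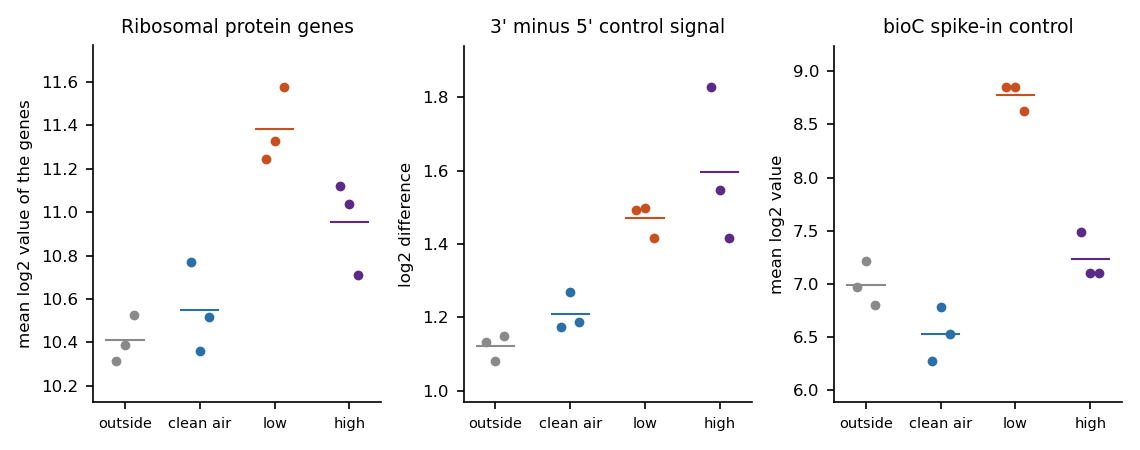
Mean log2 value of the 113 cytosolic ribosomal protein genes (left), 3' minus 5' control signal (middle) and bioC spike-in signal (right), 1 point per array and a bar for the mean of 3. The low-exposure arrays lie above the clean-air arrays in all 3 panels, and above the high-exposure arrays in the left and right panels.

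Most tested genes that build ribosomes were called higher. Of 28 tested genes of ribosome biogenesis and nucleolar proteins 21 rose and none fell, with a median of 0.96, beside 11.8% and 11.4% of all tested probe sets called higher and lower. AT3G10530, a nucleolar WD-repeat protein, was at 7.40, 6.90 and 6.94 in clean air and at 8.75, 8.53 and 8.67 at low exposure, a rise of 1.57 ± 0.26 (adjusted p = 0.00321). AT5G15550 (1.17 ± 0.18), whose product is a WD-repeat partner of the Pescadillo complex, AT5G66540 (1.14 ± 0.19), of the small-subunit processome, and AT3G05060 (1.12 ± 0.18), a NOP58-type core protein of small nucleolar ribonucleoproteins, rose with adjusted p between 0.00262 and 0.00302. Of the same 28 genes 14 were already higher in clean air than outside the chamber (median 0.92), where 1.7% of all tested probe sets were called higher. At high exposure 24 of the 28 were called above clean air (median 0.99; 22.8% of all probe sets), and directly against low exposure 3 were higher and 2 lower (21.1% and 28.7% of all probe sets). None of the 28 was called with the 3' minus 5' covariate, although 25 stayed above zero. Without clean air replicate 2 or 3, 15 and 14 were called.

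The plastid ribosome translates the chloroplast's own messages. Of 10 tested genes on the list of its proteins 9 were called higher, with a median of 0.80 (11.8% of all tested probe sets were called higher). The loci of this list were entered wholly or partly after the values had been read, and ribosomal protein genes of the plastid genome were not on it. Of those, rps2 (1.44), rps4 (1.07) and rpl32 (0.46) were called higher. Others were not called, among them rps15 (0.08), rps3 (0.08), rpl36 (-0.56) and rpl14 (-0.60). AT1G64510 was at 11.70, 11.33 and 11.12 in clean air and at 12.23, 12.35 and 12.28 at low exposure, a rise of 0.90 ± 0.16 (adjusted p = 0.00422). AT2G43030 (0.66 ± 0.11), AT3G54210 (0.78 ± 0.15) and AT4G01310 (0.83 ± 0.17) rose as well. None of the 10 was called at high exposure against clean air, beside 52.9% of all tested probe sets. Against the plants outside the chamber 6 were called, with a median of 0.45 and 1 difference below zero. With spike-in scaling none was called, with the 3' minus 5' covariate 2 were, and without clean air replicate 3 there were 5.

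Translation factors and tRNA synthetases rose in part, beside 11.8% of all tested probe sets called higher and 11.4% lower. Of 14 tested 6 rose and none fell, with a median of 0.26. They included AT1G77840, the initiation factor eIF5 (0.84 ± 0.16), AT2G40290, a subunit of eIF2 (0.82 ± 0.14), AT5G44320, a subunit of eIF3 (0.67 ± 0.13), and EIF4A-2, a helicase that unwinds messages for initiation (0.69 ± 0.14). Each of these 4 was called in all 12 fits that left out 1 array. Of 3 DEAD-box RNA helicases AT3G09720 rose by 1.10 ± 0.26, and of 2 pentatricopeptide repeat genes PPR596, whose family acts on organelle RNA, rose by 1.45 ± 0.29. Of 9 proteasome genes, whose products degrade tagged proteins, AT1G75990 was called (0.59 ± 0.19, adjusted p = 0.0416), a call lost without any 1 clean-air plant, without low exposure replicate 1 or 2, high exposure replicate 2 or outside replicate 1 (adjusted p up to 0.125).

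**Figure D3:**
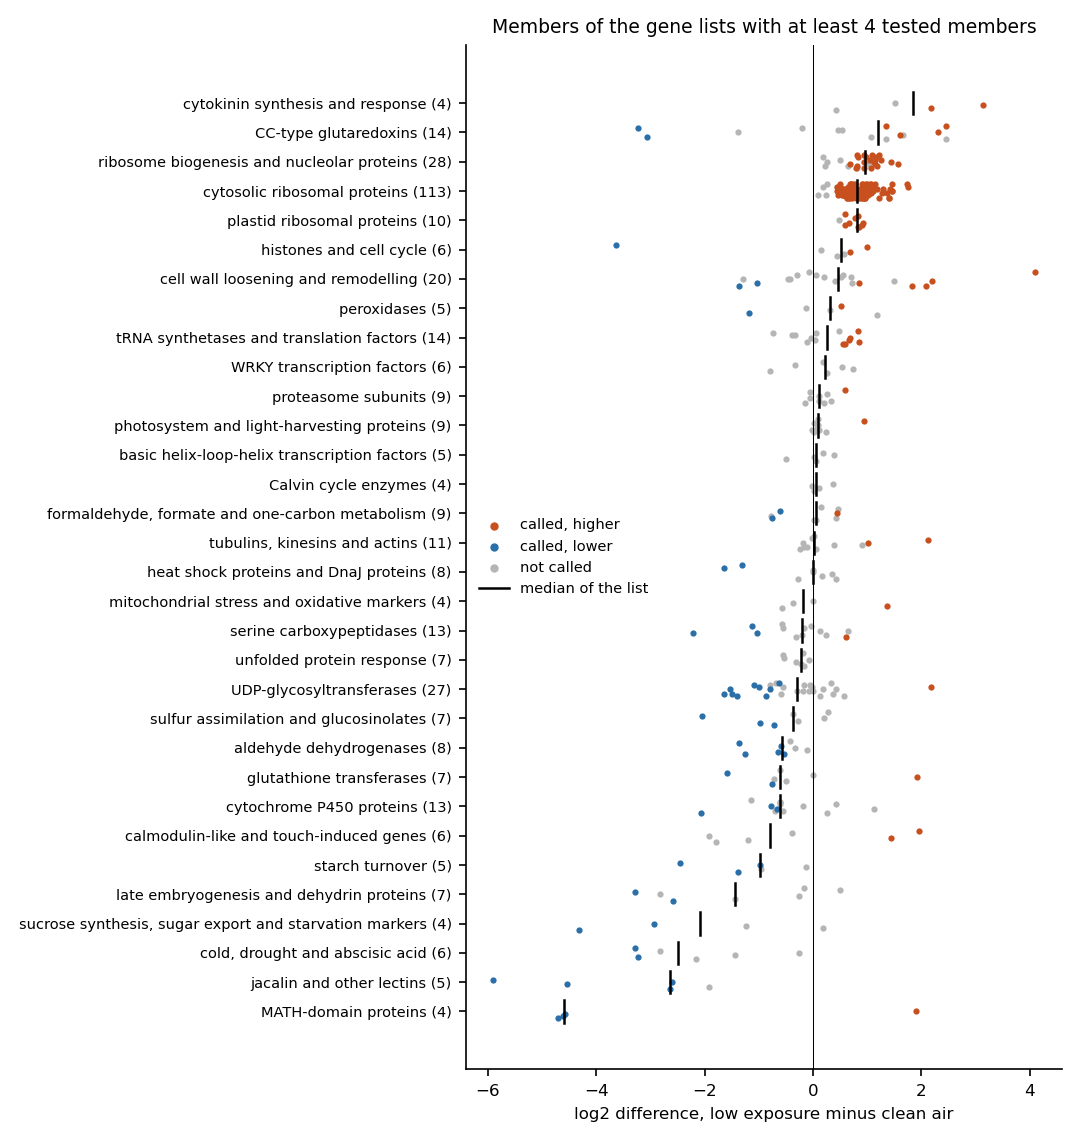
Difference between low exposure and clean air (log2) for each tested member of the 32 gene lists with at least 4 tested members, sorted by list median (black bar), with the number tested in brackets. Orange points were called higher, blue points lower and grey points not called, and the medians run from 1.85 for cytokinin genes to -4.59 for MATH-domain genes.

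The largest rises came from genes of several families. The rises named first are those with all 6 arrays above 4 and no overlap between the groups. AT4G21870, of the small heat shock protein family, was at 9.05, 8.50 and 6.16 in clean air and at 12.04, 11.49 and 11.93 at low exposure. Every low-exposure plant was above 11 and every clean-air plant below 10, and the difference was 3.92 ± 0.60 (adjusted p = 0.00257). AT4G29020, a glycine-rich protein, rose by 3.67 ± 0.80, and its call was lost against the plants outside the chamber (1.67 against them). AT5G48490, a relative of the lipid transfer protein DIR1 of systemic resistance, rose by 3.10 ± 0.80 (adjusted p = 0.0189), and its call was lost without clean air replicate 3 or low exposure replicate 3 (adjusted p up to 0.0684) and against the outside plants. The GDSL-type lipases AT4G18970 and AT1G33811, of a family of secreted esterases, rose by 2.99 ± 0.61 and 2.69 ± 0.41. AT1G33811 was at 8.05, 7.84 and 6.94 in clean air and at 10.23, 10.36 and 10.32 at low exposure. AT5G35740 rose by 2.97 ± 0.49, AT1G62480, a vacuolar calcium-binding protein, by 2.75 ± 0.53, and AT3G54400, a secreted aspartyl protease, by 2.47 ± 0.43. The call of AT3G54400 was lost against the outside plants. With the 3' minus 5' covariate 1 of the 10 largest rises, CCS, was still called, and all 10 kept their direction.

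Genes that were not above 4 in any clean-air plant have only a lower bound to their rise. The 6 with the highest level at low exposure were AT1G50040 (at least 5.45-fold), CIL (at least 4.7-fold), AT1G78260 (at least 4.31-fold), ChiC, a class V chitinase (at least 2.49-fold), ARR15 (at least 2.44-fold) and AT3G19360 (at least 2.39-fold). AT1G50040 was at 3.94, 3.18 and 3.02 in clean air and at 7.00, 6.65 and 5.69 at low exposure (adjusted p = 0.000986). All but CIL were also called with the 3' minus 5' covariate. Over all probe sets 68 were above 4 in every low-exposure plant and in no clean-air plant, and 55 of these were called. The opposite pattern held for 88, of which 72 were called.

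Named cell wall genes included rises and falls. Xyloglucan endotransglucosylases (XTH genes) cut and rejoin the xyloglucan chains of growing walls, and expansins loosen the bonds between wall polymers. Of 20 tested genes on the list of wall loosening and remodelling 5 rose and 2 fell, with a median of 0.46. Over all tested probe sets 11.8% rose and 11.4% fell, so that the falls on this list were near the background share. The list is not complete: the pectin methylesterase AT1G05310 and TBL26, both among the large falls described below, were not on it. XTH16 was at 4.76, 4.05 and 2.59 in clean air and at 8.32, 7.84 and 7.52 at low exposure. The clean-air plants were near background and the low-exposure plants well above it. The difference was 4.09 ± 0.47 (adjusted p = 0.00084), or 3.62 with values below 4 raised to 4, and it was also called with the 3' minus 5' covariate. EXPA9, an expansin, was at 4.98, 3.03 and 4.16 in clean air and at 5.91, 6.42 and 6.47 at low exposure, a rise of 2.20 ± 0.44 (1.88 with values raised to 4). XTH33 rose by 2.08 ± 0.50 (1.27 raised to 4; lost without clean air replicate 3, adjusted p up to 0.053) and the expansin-like EXLA2 by 1.84 ± 0.32 (1.32 raised to 4). EXGT-A3, a further endotransglucosylase, rose by 0.86 ± 0.24, a call lost without clean air replicate 2 or 3 or any low-exposure plant (adjusted p up to 0.115). The expansin-like EXLB1 fell by 1.37 ± 0.36, a call lost without clean air replicate 1 or 2 or low exposure replicate 1 (adjusted p up to 0.0688), and PMEPCRF, a pectin methylesterase, fell by 1.04 ± 0.21. EXO, a cell wall protein induced by brassinosteroid and needed for leaf growth, was at 8.45, 7.16 and 9.09 in clean air and at 11.56, 10.49 and 10.66 at low exposure, a rise of 2.67 ± 0.61 (adjusted p = 0.0116).

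The CC-type glutaredoxins, small plant-specific thiol proteins of which several respond to nitrogen supply, moved in both directions. Of 14 tested 4 rose and 2 fell, with a median of 1.21. Over all tested probe sets 11.8% rose and 11.4% fell, so that the count of falls was near the background share. AT3G62930 was at 5.78, 5.01 and 4.94 in clean air and at 7.30, 7.90 and 7.89 at low exposure, a rise of 2.46 ± 0.56 (adjusted p = 0.0116). AT4G15700 rose by 2.30 ± 0.52, and was not called against the outside plants. AT1G06830 rose by 1.60 ± 0.51 and AT2G30540 by 1.34 ± 0.41. Both calls were lost without clean air replicate 2 or 3 or any low-exposure plant, among others (adjusted p up to 0.152 and 0.138), and without clean air replicate 3 the difference of AT1G06830 was 1.00. AT4G33040 was at 6.86, 7.90 and 8.27 in clean air and at 4.28, 4.53 and 5.0 at low exposure, and fell by 3.07 ± 0.44 (adjusted p = 0.00184). AT5G11930 fell by 3.23 ± 0.44 (by 2.40 with values raised to 4), also called with the covariate.

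Cytokinins are hormones that promote division and delay leaf ageing, and the type-A response regulators are rapidly induced by them and damp their signal. Of 4 tested cytokinin genes 2 rose, with a median of 1.85, where 11.8% of all tested probe sets rose. ARR15, a type-A regulator, was at 2.20, 2.13 and 2.11 in clean air and at 4.17, 5.78 and 5.91 at low exposure, with every clean-air plant below 4 (adjusted p = 0.00486). UGT76C2, which inactivates cytokinin by adding glucose, was at 6.78, 6.12 and 4.65 in clean air and at 7.63, 8.25 and 8.22 at low exposure, a rise of 2.18 ± 0.47 (adjusted p = 0.00906). Neither was called against the plants outside the chamber, where ARR15 was at 2.61, 5.02 and 3.73 and UGT76C2 at 7.56, 7.58 and 8.56. Both tested genes rose on the list of copper proteins and superoxide dismutases, whose loci were entered wholly or partly after the values had been read. The 2 genes cannot show a change of copper proteins as a group. CCS, the chaperone that inserts copper into superoxide dismutase, was at 9.22, 8.04 and 7.47 in clean air and at 10.38, 10.36 and 11.44 at low exposure, a rise of 2.48 ± 0.54 (adjusted p = 0.00915), while AT3G15640, a cytochrome c oxidase subunit, rose by 0.79 ± 0.22, a call lost without clean air replicate 2 or 3 or low exposure replicate 2 or 3 (adjusted p up to 0.109) and with the outside plants as control.

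Among calcium sensors 2 of 6 tested calmodulin-like and touch-induced genes rose and none fell. The other 4 differences were below zero, and the list median was -0.80. Of all tested probe sets 11.8% rose and 11.4% fell. CML30 was at 8.00, 7.76 and 6.95 in clean air and at 9.95, 9.48 and 9.15 at low exposure, a rise of 1.95 ± 0.35 (adjusted p = 0.00459), and CML42 rose by 1.44 ± 0.36 (lost without clean air replicate 2 or 3 or low exposure replicate 3, adjusted p up to 0.0588, and against the outside plants). Of 11 genes of the cytoskeleton ACT11, an actin, rose by 2.13 ± 0.40 (adjusted p = 0.0053) and TUB7, a beta-tubulin, by 1.01 ± 0.28 (lost without clean air replicate 3 or low exposure replicate 1 or 2, adjusted p up to 0.0977). No other gene of that list was called, 5 of its 11 differences were below zero, and its median was 0.02. Of 6 histone and cell cycle genes the H2B genes HTB1 (0.99 ± 0.21) and HTB11 (0.68 ± 0.21; lost in 5 of the 12 fits without 1 array, those without clean air replicate 2 or 3, low exposure replicate 1 or 2 or high exposure replicate 2, adjusted p up to 0.142) rose. HIS1-3, a linker histone induced by drought, was at 5.32, 7.77 and 9.57 in clean air and at 5.07, 3.40 and 3.28 at low exposure, and fell by 3.64 ± 0.85 (by 3.20 with values raised to 4; adjusted p = 0.0122). HIS1-3 was not called against the outside plants.

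The listed lectin and MATH-domain genes were mostly called lower. Jacalin-type lectins bind sugars, and several belong to the complex that gathers around myrosinase when a glucosinolate-containing leaf is wounded. Of 5 tested lectin genes 4 fell and none rose, with a median of -2.64. Of all tested probe sets 11.4% were called lower and 11.8% higher. The loci of the lectin and MATH-domain lists were entered wholly or partly after the values had been read. Their counts therefore describe picked genes and cannot show that a family fell as a whole. JAL23 was at 8.30, 8.81 and 10.31 in clean air and at 2.58, 3.89 and 3.27 at low exposure. It was at least 35.3-fold lower (adjusted p = 0.00104), also with the 3' minus 5' covariate. AT1G52000 was at 9.54, 11.00 and 11.18 in clean air and at 5.10, 6.64 and 6.36 at low exposure, and fell by 4.54 ± 0.75 (adjusted p = 0.00309). JAL34 fell by 2.64 ± 0.43 and EULS3, a lectin of the Euonymus type linked to stomatal closure, by 2.60 ± 0.42. Of 4 tested MATH-domain genes, whose products share the fold of TRAF adaptors, 3 fell and 1 rose. AT3G28220 was at 11.10, 12.49 and 11.87 in clean air and at 6.12, 7.93 and 7.70 at low exposure, and fell by 4.57 ± 0.59 (adjusted p = 0.00122). AT4G01390 fell by 4.70 ± 0.57 and ZW9 by 4.61 ± 0.91, while AT3G17380 rose by 1.90 ± 0.31. The calls of AT3G28220 and AT4G01390 held with the covariate.

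Other large falls lay in single genes. AT1G68600, of the aluminium-activated malate transporter family, was at 10.50, 11.08 and 11.29 in clean air and at 7.31, 7.41 and 6.94 at low exposure. The groups were more than 3 log2 units apart, and the fall was called with the covariate too (fell by 3.73 ± 0.41, adjusted p = 0.00084). AT1G05310, a pectin methylesterase, fell by 3.39 ± 0.57. TBL26, of a family that acetylates wall polysaccharides, fell by 3.32 ± 0.68, and AT2G43530, a defensin-like protein, fell by 3.29 ± 0.49. The protease genes AT5G59130, a subtilase, and AT1G20380, a prolyl oligopeptidase, fell by 3.19 ± 0.48 and fell by 3.16 ± 0.86 respectively. AT1G20380 was not called without clean air replicate 2 or 3 or low exposure replicate 1 (adjusted p up to 0.0949). Of genes not above 4 in any low-exposure plant, AT4G17470 was at least 12.4-fold lower, AT1G51090 at least 11.1-fold, AT1G77960 at least 7.71-fold, AT4G29700 at least 5.44-fold and AT1G16850 at least 3.58-fold. The call of AT1G51090 was lost without clean air replicate 2 or 3 or low exposure replicate 2 or 3 (adjusted p up to 0.0921). Those of AT4G29700 and AT1G16850 were lost with values below 4 raised to 4. With the 3' minus 5' covariate 3 of the 10 largest falls above background, AT3G28220, AT1G68600 and AT1G05310, were still called, and all 10 kept their direction.

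**Figure D4:**
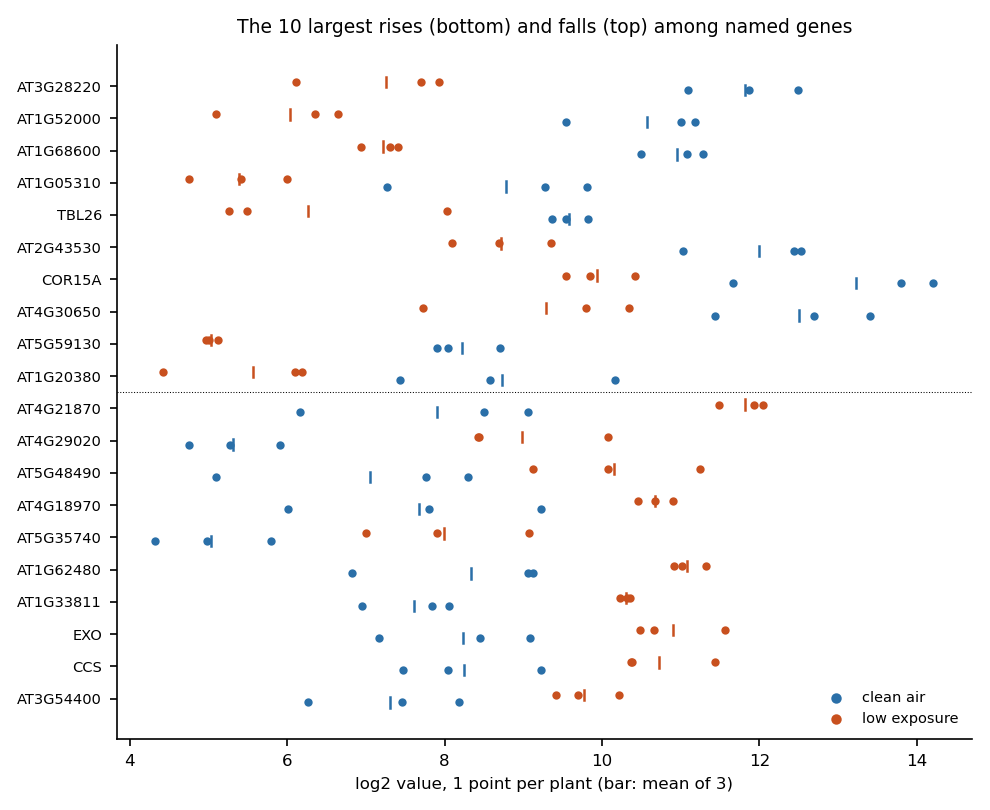
Log2 value in each clean-air (blue) and low-exposure (orange) plant for the 10 largest falls (top) and the 10 largest rises (bottom) among named genes above 4 on all 6 arrays, with bars for group means. The groups do not overlap in any of the 20 genes, which were chosen for that. In AT4G21870 the clean-air plants lie between 6.16 and 9.05 and the low-exposure plants between 11.49 and 12.04.

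Some cold and dehydration genes were called lower. COR15A and its relatives encode proteins that protect chloroplast membranes when cells freeze or dry. Of 6 tested genes of the cold, drought and abscisic acid list 2 fell and none rose, with a median of -2.49 (11.4% of all tested probe sets fell), and 1 fell without clean air replicate 2 or 3. COR15A was at 11.66, 14.21 and 13.80 in clean air and at 10.42, 9.85 and 9.55 at low exposure. It fell by 3.28 ± 0.77 (adjusted p = 0.0127), a call lost without clean air replicate 2 or 3 (adjusted p up to 0.0552). AT4G30650, of the family of small cold- and salt-induced membrane proteins, was at 11.43, 13.40 and 12.69 in clean air and at 10.34, 9.80 and 7.72 at low exposure, and fell by 3.22 ± 0.66 (adjusted p = 0.00754). COR27, a cold- and clock-regulated gene counted among 7 late embryogenesis and dehydrin genes of which 2 fell, fell by 2.59 ± 0.69, a call lost without clean air replicate 2 or 3 or low exposure replicate 3 (adjusted p up to 0.0848).

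Of 4 tested genes of sucrose synthesis, sugar export and starvation 2 fell, where 11.4% of all tested probe sets did. SWEET13, which exports sucrose from cells, was at 7.62, 7.62 and 9.21 in clean air and at 3.33, 3.97 and 4.19 at low exposure. Every low-exposure plant lay more than 3 log2 units below every clean-air plant (fell by 4.32 ± 0.85, adjusted p = 0.00647, or by 4.09 with values raised to 4), but SWEET13 was not called against the outside plants (5.16, 7.58 and 3.23). AT1G62660, a vacuolar invertase that splits sucrose, was at 8.75, 9.13 and 9.69 in clean air and at 6.44, 6.56 and 5.77 at low exposure, and fell by 2.94 ± 0.36 (adjusted p = 0.00104), also with the covariate. Of 5 starch probe sets 3 fell and none rose (median -0.98). AT4G24450 and AT5G26570, of the glucan and phosphoglucan water dikinases that phosphorylate starch, fell by 2.45 ± 0.50 and 1.39 ± 0.32. APL3, a large subunit of the enzyme that makes ADP-glucose for starch, fell by 0.98 ± 0.17 against clean air and stood 0.23 above the outside plants (adjusted p = 0.315).

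Glucosinolates are sulfur-rich defence compounds of the cabbage family, and BCAT4 starts the lengthening of methionine from which many of them are made. Of 7 tested sulfur genes 3 fell (median -0.37) and of 3 tested glucosinolate genes 2 (median -2.04), with none called higher in either list, beside 11.4% of all tested probe sets called lower. BCAT4, in both lists, was at 11.62, 11.92 and 12.55 in clean air and at 9.34, 9.99 and 10.64 at low exposure, and fell by 2.04 ± 0.38 (adjusted p = 0.00521). AT2G25450, a dioxygenase of glucosinolate side chains, was at 11.48, 12.17 and 12.29 in clean air and at 8.25, 9.70 and 9.84 at low exposure, and fell by 2.72 ± 0.38 (adjusted p = 0.00174). The ATP sulfurylases APS4 and APS3, which activate sulfate, fell by 0.98 ± 0.19 and 0.72 ± 0.21. The call of APS3 was lost without clean air replicate 1 or 3 or low exposure replicate 1 or 2 (adjusted p up to 0.1).

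Defence hormone genes were few among the named probe sets. Of 3 tested genes of salicylic acid and systemic resistance 2 fell, where 11.4% of all tested probe sets fell. AT1G76960 was at 9.60, 9.90 and 11.36 in clean air and at 6.65, 3.61 and 4.78 at low exposure, and fell by 5.27 ± 0.86 (adjusted p = 0.00302). SAG101, a partner of EDS1 in immune signalling, fell by 0.93 ± 0.25, a call lost without clean air replicate 2 or 3 or low exposure replicate 2 or 3 (adjusted p up to 0.0774). Of 2 tested jasmonate genes JMT, which methylates jasmonic acid, was at least 1.29-fold lower, a call lost without clean air replicate 2 or 3 or any low-exposure plant (adjusted p up to 0.112), against the outside plants and with values raised to 4.

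Of 8 tested aldehyde dehydrogenase genes 5 fell and none rose, and all 8 differences were below zero (median -0.57), where 11.4% of all tested probe sets fell. The 5 falls became 1 without clean air replicate 2 or low exposure replicate 3 and 2 without clean air replicate 3. ALDH11A3, a cytosolic glyceraldehyde-3-phosphate dehydrogenase that works without phosphate, was at 11.30, 11.28 and 11.76 in clean air and at 9.88, 10.35 and 10.37 at low exposure, and fell by 1.25 ± 0.25 (adjusted p = 0.00631). ALDH7B4, a stress-induced antiquitin-type enzyme, fell by 1.36 ± 0.44 (adjusted p = 0.0471) with overlapping groups, ALDH3F1 by 0.65 ± 0.17, and the betaine aldehyde dehydrogenase relatives ALDH10A8 and ALDH10A9 by 0.60 ± 0.17 and 0.54 ± 0.16. The ALDH10 calls were lost without clean air replicate 2 or 3 or low exposure replicate 3 (adjusted p up to 0.101 and 0.116), where ALDH10A9 fell by 0.35. The call of ALDH3F1 was lost without clean air replicate 1 or 2 or low exposure replicate 2 or 3 (adjusted p up to 0.0822), and that of ALDH7B4 in 9 of the 12 fits without 1 array (up to 0.174), all but those without clean air replicate 1, low exposure replicate 2 or outside replicate 3.

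Of 9 tested genes of formaldehyde, formate and one-carbon metabolism 1 rose and 2 fell, with a median of 0.06. Over all tested probe sets 11.8% rose and 11.4% fell, so that the count of rises was near its background share. FDH, formate dehydrogenase, was at 11.87, 12.99 and 13.08 in clean air and at 12.53, 12.27 and 10.80 at low exposure. The groups overlapped, and the difference of -0.78 ± 0.43 was not called (adjusted p = 0.211). AT3G12290, a methylenetetrahydrofolate dehydrogenase, was at 11.10, 11.28 and 11.27 in clean air and at 10.85, 10.44 and 10.54 at low exposure, and fell by 0.60 ± 0.14 (adjusted p = 0.0108). 5-FCL, which returns a storage form of folate to the pool, fell by 0.76 ± 0.19, a call lost without clean air replicate 3 (adjusted p = 0.0681). AT5G47435, a formyltetrahydrofolate deformylase, rose by 0.45 ± 0.14 (adjusted p = 0.0433), a call lost in 9 of the 12 fits without 1 array (up to 0.165), all but those without clean air replicate 1 or outside replicate 2 or 3.

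Of 27 tested UDP-glycosyltransferases 9 fell and 1 rose, with a median of -0.30, where 11.4% and 11.8% of all tested probe sets fell and rose. The falls numbered 4 and 3 without clean air replicate 2 or 3, and 5 without low exposure replicate 1 or 3. UGT74B1, an enzyme of glucosinolate synthesis, was at 11.12, 11.36 and 11.11 in clean air and at 9.02, 9.74 and 9.89 at low exposure, and fell by 1.65 ± 0.27 (adjusted p = 0.00318). GT72B1, which glucosylates lignin precursors and some pollutants, fell by 1.49 ± 0.26 and UGT71B1 by 1.40 ± 0.25, and UGT78D1, a flavonol rhamnosyltransferase also counted as the phenylpropanoid gene that fell, by 1.08 ± 0.35. The call of UGT78D1 was lost without any 1 clean-air plant, low exposure replicate 1 or 2, high exposure replicate 3 or outside replicate 2 (adjusted p up to 0.137). UGT85A5, UGT72B3, UGT84A3, UGT73B5 and UGT88A1 also fell, the first by 1.52 ± 0.47 with overlapping groups, and each of these 5 calls was lost without clean air replicate 3, among other arrays (adjusted p up to 0.144). With values raised to 4 UGT73B5 fell by 0.47. The gene that rose was UGT76C2. None of the 27 was called with the 3' minus 5' covariate.

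Of 13 tested cytochrome P450 genes, oxygenases of many natural products, 3 fell and none rose. Among all tested probe sets 11.4% fell and 11.8% rose. Of the P450 genes 1 fell without clean air replicate 2 or 3 or low exposure replicate 2. CYP71B28 fell by 0.77 ± 0.16 and CYP71B5 by 0.67 ± 0.16 (lost without clean air replicate 2 or 3 or low exposure replicate 2, adjusted p up to 0.0617), and CYP71B24 fell by 2.07 ± 0.63 (lost without any 1 clean-air plant or low exposure replicate 1 or 2, adjusted p up to 0.114). Of 7 tested glutathione transferases GSTF4 rose by 1.92 ± 0.39 (1.70 with values raised to 4), while GSTU16 and GSTL3 fell by 1.59 ± 0.27 and 0.75 ± 0.14. GSTU16 was at 8.70, 9.12 and 9.26 in clean air and at 7.01, 7.47 and 7.82 at low exposure (adjusted p = 0.00336). Of 13 tested serine carboxypeptidase-like genes 3 fell and 1 rose. scpl35 was at 9.42, 9.20 and 9.37 in clean air and at 7.05, 7.53 and 6.77 at low exposure, and fell by 2.21 ± 0.25 (adjusted p = 0.00084), also with the covariate. scpl20 fell by 1.12 ± 0.18 and SCPL49 by 1.03 ± 0.22, and scpl42 rose by 0.61 ± 0.17, a call lost without clean air replicate 2 or 3 or low exposure replicate 2 or 3 (adjusted p up to 0.0816). Of 5 tested peroxidases PRXR1 fell by 1.18 ± 0.20 and TAPX, the thylakoid ascorbate peroxidase, rose by 0.52 ± 0.13, a call lost without clean air replicate 3 (adjusted p = 0.0799).

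Heat shock and protein folding genes did not rise as listed. Of 8 tested heat shock and DnaJ genes none rose and 2 fell, where 11.8% and 11.4% of all tested probe sets rose and fell. Only 2 of the 8 were above 4 on all 6 arrays. AT1G54050, a small heat shock protein, was at 6.08, 6.50 and 7.28 in clean air and at 4.10, 5.88 and 4.93 at low exposure, and fell by 1.65 ± 0.50 (adjusted p = 0.035), a call lost without clean air replicate 2 or 3 or low exposure replicate 1 or 3 (adjusted p up to 0.133) and against the outside plants. AT2G20560, a DnaJ co-chaperone, fell by 1.31 ± 0.40, which was not called without clean air replicate 2 or 3, low exposure replicate 2 or 3 or high exposure replicate 2 (adjusted p up to 0.144). AT4G21870, the largest rise among named genes above 4 on all 6 arrays, belongs to the small heat shock proteins but was not in that list. All 8 listed genes were called higher at high exposure than in clean air, beside 22.8% of all tested probe sets. Of 7 tested unfolded protein response genes none was called, and all 7 differences were below zero. BZIP28, a membrane-bound sensor of that response, was at -0.53 ± 0.19 (adjusted p = 0.0638) and DER1, of protein export from the endoplasmic reticulum, at -0.31 ± 0.14 (adjusted p = 0.138). Of 3 tested chaperonin and import genes Cpn60beta3, a plastid chaperonin subunit, fell by 0.66 ± 0.19 against clean air, a call lost without clean air replicate 2 or 3 or low exposure replicate 1 or 3 (adjusted p up to 0.12). It was 0.67 above the outside plants (adjusted p = 0.0188).

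Of 9 tested genes of photosystems and light harvesting LPA19, an assembly factor of photosystem II, rose by 0.94 ± 0.17 (adjusted p = 0.00517), with a list median of 0.08. No other gene of that list was called, where 11.8% of all tested probe sets rose. Of plastid photosystem genes not on the list, psbA (-0.82), psbB (-0.82) and psbT (-1.03) were called lower and psaB (0.61) higher. Others, such as psbE (-0.16), were not called. None of the 4 listed Calvin cycle genes was called. The closest on the list were AT1G56190, a phosphoglycerate kinase (0.37 ± 0.25, adjusted p = 0.299), and SBPASE (0.11 ± 0.22, adjusted p = 0.753). The plastid gene rbcL, of the large subunit of rubisco, was not on the list and was called lower (-1.12). Of 4 tested mitochondrial stress markers AT2G41730 rose by 1.37 ± 0.31 (adjusted p = 0.0104). The other 3 were not called and lay below zero (list median -0.19). No call was made among 6 WRKY genes, where ZAP1 (-0.34 ± 0.11, adjusted p = 0.0518) and WRKY47 (0.53 ± 0.29, adjusted p = 0.208) came closest, nor among 5 basic helix-loop-helix genes, where bHLH115 was at -0.50 ± 0.18 and bHLH34 at 0.39 ± 0.26. The auxin genes IAA29 (-1.05 ± 0.94) and IAA18 (0.20 ± 0.19), the ethylene genes EIN3 (-0.24 ± 0.21) and RTE1 (0.11 ± 0.21), the clock gene GI (-0.95 ± 0.80), the iron genes AT1G47400 (1.36 ± 1.06) and PYE (0.83 ± 0.49), the low oxygen gene AT2G15880 (0.52 ± 0.28) and the DNA repair gene AT1G48360 (-0.03 ± 0.21) were not called. AT1G47400, GI and IAA29 varied between plants by more than their group differences, and AT1G47400 was at 8.15, 7.81 and 9.75 in clean air and at 7.93, 8.94 and 12.92 at low exposure.

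Low and high exposure were compared with the same clean-air plants. XTH16 stood 4.24 and AT4G21870 4.29 above clean air at high exposure, and AT1G62480 3.94. AT4G18970 (1.21) and AT5G35740 (0.93) were nearer to clean air there. ARR15 was below 4 in every plant at high exposure, as it was in clean air, and low exposure was at least 2.44-fold above both (adjusted p = 0.00501 for high against low). Tested directly, high minus low exposure was -1.78 for AT4G18970 (adjusted p = 0.0305) and -2.03 for AT5G35740 (adjusted p = 0.00566). Over all probe sets 6910 differed between high and low exposure (49.8%).

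**Figure D5:**
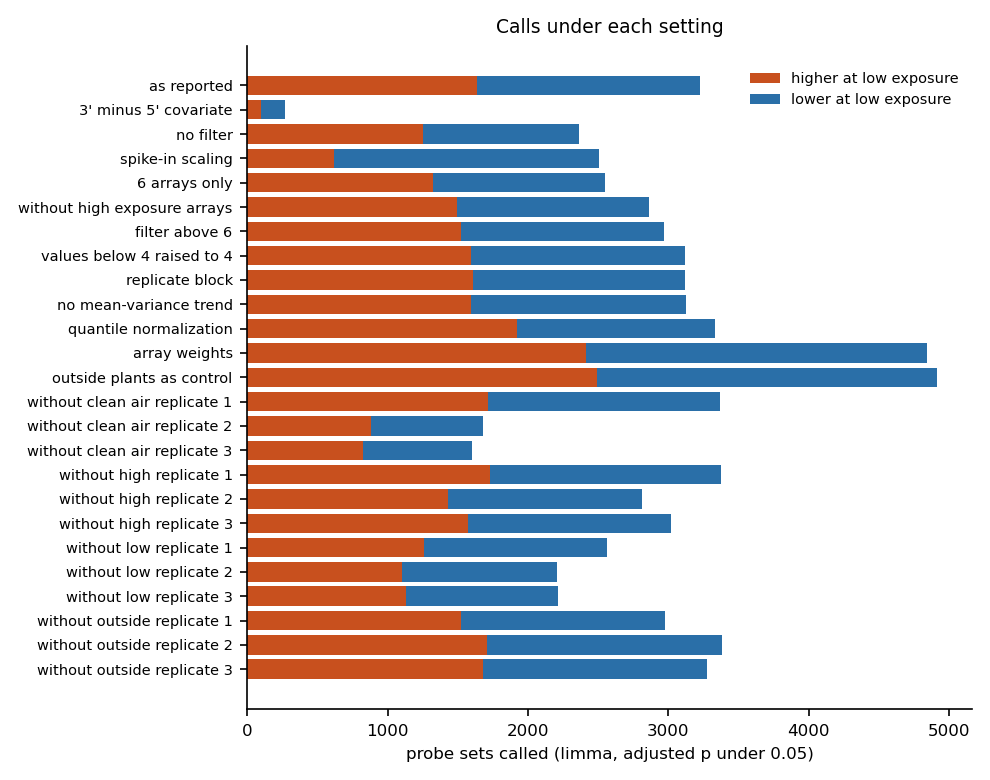
Number of probe sets called at low exposure against clean air (limma, adjusted p under 0.05) as reported and under each alternative setting or with 1 array left out, split into higher (orange) and lower (blue). The counts run from 272 with the 3' minus 5' covariate to 4919 with the plants outside the chamber as the control.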

How the data were processed

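Rosette leaf RNA of 12 plants was read on the Affymetrix ATH1 array. The deposited log2 values had been background-corrected and normalized by the authors with GCRMA, per the submitters' processing notes. Its version and options are not given in the sources here, and the scale follows from the range of the values. The shared lowest value makes up 26.4% to 28.3% of an array, so low signals carry no exact difference. Intensities and depth are unknown, and 3 arrays per group limit the precision. An exact permutation test of 3 plants against 3 cannot go below p = 0.1.

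Without the 64 control probe sets, those with a value above 4 on at least 3 of the 12 arrays were tested. The tool was limma 3.58.1 (R 4.3.3), with 1 mean per group over all 12 arrays, the variance moderated by eBayes along its trend with signal, two-sided tests and Benjamini-Hochberg adjustment over all tested probe sets. The fit was tested on simulated data with independent noise for each probe set. That test does not cover effects shared by the arrays of a chamber run. Replicate numbers were not treated as pairs in this fit. Deviations of low-exposure and clean-air plants with the same number correlated at -0.13, 0.26 and 0.12, which cannot show whether plants were paired. The plots were made in Python 3.11.15 and matplotlib 3.10.9.

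Probe sets were named through the array's annotation table and RefSeq gene identifiers of TAIR10.1. The table lists 14016 of 22810 probe sets, 13513 of them with 1 gene (13436 matched by identifier) and 503 with several, which were not named. Genes known by a symbol are listed less fully than genes known by locus.

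The genes described are, among called and non-overlapping probe sets, the 10 largest rises and falls above 4 on all 6 arrays and the 6 highest with the other group at or below 4, in each direction. Each gene list adds at most 4 called members, those with the smallest adjusted p, or its 2 closest members if it has no call, and FDH is always given. Called members beyond these (XTH33, EXGT-A3, EXLB1, AT4G30800, AT1G06830, AT2G30540, ALDH7B4, UGT85A5, UGT72B3, UGT84A3, UGT73B5, UGT88A1) and the uncalled ribosomal genes were added after their values were seen. Members and lists were chosen with earlier results of these data known. The loci of several lists, among them the ribosomal, nucleolar, lectin, MATH-domain, glutaredoxin, starch, glucosinolate, copper and cytokinin lists, were entered after the values had been read, and 6 genes matched by name alone were taken out of lists they do not belong to. Of 60 lists 47 had a tested member. Lists are described by counts and medians, with no set test.

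The alternatives were other filters, quantile normalization, spike-in scaling, array weights, the 3' minus 5' covariate, a replicate block, fits on fewer arrays, the outside plants as control, values below 4 raised to 4, and each array left out in turn.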

Additional observations from a re-analysis of the deposited data

Results flagged for a closer look

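Control probe sets were left out of the tests of genes, and the low-exposure arrays stood above the clean-air arrays in several of them. The bioC spike-in signal averaged 8.78 (log2) at low exposure, above every clean-air array, where it lay between 6.27 and 6.78, and above the outside (6.80 to 7.21) and high-exposure arrays (7.10 to 7.49). The bioB signal was also above every clean-air array, at 7.28 ± 0.09 against 6.75 ± 0.22, while bioD (11.23 ± 0.13 against 11.28 ± 0.22) and cre (13.49 ± 0.12 against 13.65 ± 0.15) differed less (SD, n = 3). The 3' minus 5' control signal averaged 1.47 at low exposure, again above every clean-air array (1.17 to 1.27), and lay between 1.41 and 1.83 at high exposure and between 1.08 and 1.15 outside the chamber. What either control has to do with the differences of single genes was not tested beyond the covariate and scaling fits.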

How the results depend on the processing

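Of the 114 called genes that the naming rule picked, 88 were called in all 12 fits without 1 array and 26 lost their call in at least 1. With the 3' minus 5' covariate 20 of the 114 stayed called, from the 6 arrays alone 96, without a filter 95, against the outside plants 92, with spike-in scaling 101, and under the 7 other settings between 109 and 114. The 3224 calls became 272 with the covariate, 4845 with array weights and 4919 against the outside plants, and lay between 1600 and 3385 without 1 array. The 1397 calls of at least 2-fold became 228, 1774 and 2334 under the same settings and 869 to 1783 without 1 array. Of the 229 called list members 15 were called with the covariate and 137 with spike-in scaling, and 151 to 234 without 1 array. For the cytosolic ribosomal protein genes these counts were 4, 39 and 67 to 108. Spike-in scaling gave 2505 calls, 24.8% of them higher, and moved the median difference to -0.18, where 50.8% were higher as reported. Quantile normalization gave 57.6%. With the replicate block there were 3121 calls (1425 of at least 2-fold). Against the outside plants WRKY47 (-1.64, adjusted p = 0.00185), Cpn60beta3 (0.67, adjusted p = 0.0188) and APL3 (0.23, adjusted p = 0.315) changed direction. The cause of these changes was not tested. All planned settings were run. Signals at or below 4 limit what can be said of weakly expressed genes.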
